A study of Mus musculus with 11 samples.

Results

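The nuclear factor I (NFI) family consists of 4 transcription factor genes in the mouse, Nfia, Nfib, Nfic and Nfix, and its methylation was followed in Dnmt3a-deleted and control blood progenitors. All 4 genes, of 49943 in the RefSeq gene table used, were included, each with 1 kb on either side. They were chosen by the methylation differences between knockout and control LSK cells, in which Nfix held many lower tiles, so the LSK values below are a description. A model is applied to them only to say which tiles meet a threshold, and that is no independent test. NFI proteins bind DNA as dimers at a palindrome of TTGGC half-sites and can activate or repress transcription. In mouse blood Nfix is known for supporting the survival of transplanted stem and progenitor cells, and in human progenitors Nfia is known for a part in the choice between erythroid and granulocytic fates. Nfib is known from lung and brain development and Nfic from tooth root formation. Dnmt3a, the gene deleted in the study, encodes an enzyme that methylates cytosines of unmethylated DNA.

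Enhanced reduced representation bisulfite sequencing, which reads cytosine methylation in fragments cut by MspI, was applied to sorted bone marrow cells of C57BL/6 mice 12 months old. Knockout (KO) mice carried floxed Dnmt3a alleles and the Mx1-Cre transgene, whose promoter is induced by poly(I:C) and is not limited to blood cells, and control (CTRL) mice carried the floxed alleles without Cre. Both received 5 injections of poly(I:C). The groups were KO LSK (libraries 1327, 1333 and 1334), CTRL LSK (1326, 1330 and 1331), KO GMP (178 and 179) and CTRL GMP (346 and 349), where LSK cells are Lin- Sca1+ cKit+ cells, the fraction with the blood stem cells, and GMP cells are Lin- Sca1- cKit+ CD34+ FcgR+ granulocyte-macrophage progenitors. A further GMP library, 352, has labels that contradict each other on Cre and entered no comparison.

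Across the genome the coverage of the LSK tables summed to 157.4 to 181.1 M (M, mega) over their C positions, with medians of 85 to 103 reads per position. That of the GMP tables summed to 95.4 to 109.7 M, with medians of 50 to 59. These sums count a read once at each C position it covers and are not numbers of reads. Within the NFI genes a library listed 1390 to 1537 C positions with 10 reads or more, and 1219 were listed in all 10 assigned libraries. These were 492 in Nfix, 317 in Nfic, 237 in Nfia and 173 in Nfib. The deleted part of Dnmt3a was checked at 5 C positions on chromosome 12 (3903653 to 3904031). KO LSK libraries listed 0 of them and CTRL LSK libraries listed 5. KO GMP libraries 178 and 179 listed 4 and 5, with 27.9% and 53.3% of the mean control coverage there, so reads from the deleted part were present in both GMP knockouts. Their part in the GMP results below was not tested. Control GMP tiles were lower than control LSK tiles at 5 of 8 tiles of granulocyte genes listed as GMP markers (in Mpo, Ctsg and Cebpe), at 0 of 44 tiles of stem cell markers and at 0 of 22 of markers of other cells. Of all tiles 0.772% were called lower in this comparison. A level is a mean over the cells of a library, so methylation lost in every cell and a changed mix of cells cannot be told apart.

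RefSeq gives promoter windows (250 bases before to 50 after a transcript start, GRCm38.p6) for Nfix, Nfic and Nfia. Windows that held C positions listed in all 10 libraries are shown, 5′ to 3′ on the gene's strand, because these are the promoter bases with values; capitals mark those CpGs.
Nfix, chr8:84773361-84773660, minus strand: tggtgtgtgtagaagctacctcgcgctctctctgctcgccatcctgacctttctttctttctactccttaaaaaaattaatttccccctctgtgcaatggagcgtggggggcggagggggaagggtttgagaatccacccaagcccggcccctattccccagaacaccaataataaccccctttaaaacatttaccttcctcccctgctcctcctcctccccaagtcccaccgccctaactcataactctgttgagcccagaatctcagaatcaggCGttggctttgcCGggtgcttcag
Nfia, chr4:97581693-97581992, plus strand: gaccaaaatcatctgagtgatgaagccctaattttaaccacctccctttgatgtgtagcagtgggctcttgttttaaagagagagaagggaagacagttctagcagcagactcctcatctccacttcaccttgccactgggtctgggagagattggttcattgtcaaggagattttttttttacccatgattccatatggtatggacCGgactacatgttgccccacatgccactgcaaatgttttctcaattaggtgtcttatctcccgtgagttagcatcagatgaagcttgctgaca

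In the Nfix window, the CpG 27 bases after the start stood at 29.3%, 19.1% and 22.1% in KO LSK libraries, against 45.0%, 39.7% and 27.8% in CTRL LSK libraries, and these ranges overlapped. It stood at 26.8% and 23.1% in KO GMP and at 28.3% and 29.9% in CTRL GMP libraries. The neighbouring CpG, 39 bases after the start, stood at 41.7%, 33.1% and 42.0% in KO LSK, against 61.1%, 51.0% and 54.9% in CTRL LSK, so the LSK groups did not overlap at this CpG, while in GMP the ranges overlapped (38.4% and 42.8% in KO, 52.2% and 37.9% in CTRL). The Nfia CpG, 43 bases before its start, was at 86.8% or above in every library. The other Nfix windows and the Nfic window, with 24 CpGs in its 300 bases, held no position listed in all libraries. On either strand the half-site TTGGC occurred 1 time in the Nfix window shown and 0 times in that of Nfia. It occurred in 46.7% of 32851 mouse promoter windows, and the whole palindrome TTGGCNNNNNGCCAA, found in none of the NFI windows, in 0.0365%.

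Nfix (chromosome 8, 84704712 to 84801238) carried less methylation in KO than in CTRL LSK cells at 23 of its 27 tiles of 1000 bp with at least 3 C positions, and the difference was large at 7. The median difference of its tiles was -5.78 percentage points, against -0.37 over all 107074 tiles, of which 66110 had a negative difference. A tile was called lower at an adjusted p under 0.05 in a quasi-binomial model and a difference in pooled reads of 20 points or more, a rule that 0.871% of all tiles met. The Nfix tiles that met it were spread over the gene. They lay 5.4 and 6.4 kb upstream of the most upstream RefSeq window start and at distances of 34.6 to 72.6 kb downstream of it. That start, at 84780082, lies within the annotated span, whose upstream end on the minus strand is 84801238, so both upstream tiles are inside the gene. None of the 7 overlapped another annotated gene, although Lyl1 and G430095P16Rik share bases with the Nfix span or the 1 kb on either side.

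**Figure D1:**
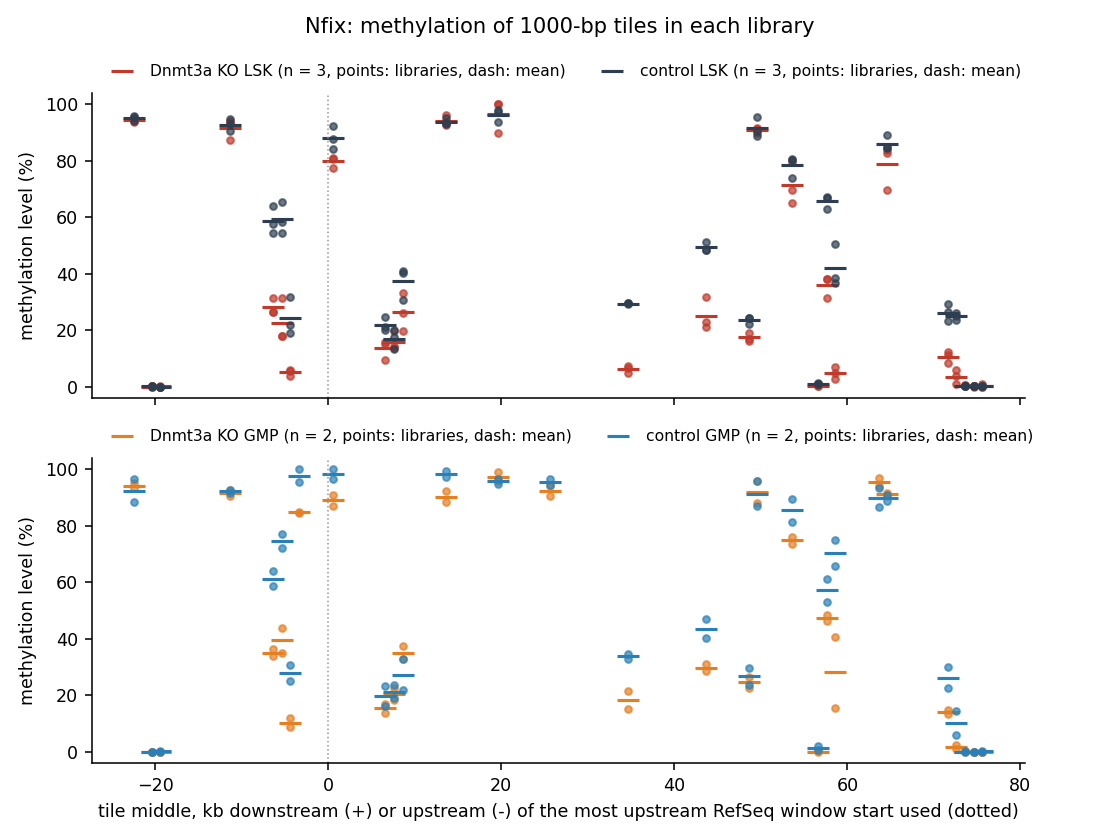
Methylation level (%) of each Nfix tile against the distance of its middle from the most upstream RefSeq window start (kb), in LSK libraries (top) and GMP libraries (bottom), with points for libraries and dashes for group means. Tiles near 0% coincide between KO and CTRL, and the widest separations are at tiles of intermediate CTRL level.

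The tile 5.4 kb upstream (chr8:84785001-84786000, 30 C positions) stood at 31.5%, 18.1% and 17.9% in KO LSK libraries, against 54.6%, 65.4% and 58.2% in CTRL LSK libraries. Its mean level was 22.5% ± 7.81 in KO and 59.4% ± 5.47 in CTRL cells (SD, n = 3 each). The next tile, 6.4 kb upstream (chr8:84786001-84787000, 10 C positions), stood at 26.6%, 31.4% and 26.6% in KO LSK, against 54.4%, 57.6% and 64.0% in CTRL LSK. In both tiles the highest KO library lay more than 20 points below the lowest CTRL library.

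Among the tiles downstream of the window start, the one 58.6 kb away (chr8:84721001-84722000, 7 C positions) had a difference of -37.4 points, the largest in LSK among all Nfix tiles. It stood at 4.96%, 6.89% and 2.71% in KO LSK, against 50.7%, 38.5% and 36.6% in CTRL LSK. Its neighbour (chr8:84722001-84723000) stood at 38.4%, 38.1% and 31.3% in KO LSK, against 66.8%, 62.9% and 67.4% in CTRL LSK. These adjoining tiles thus differed in level within each genotype, the second being higher in every LSK library.

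The tile 34.6 kb downstream (chr8:84745001-84746000, 20 C positions) had the smallest CTRL LSK spread among the called tiles (SD 0.206). It stood at 7.53%, 4.97% and 6.81% in KO LSK, against 29.7%, 29.3% and 29.5% in CTRL LSK. The tile 43.6 kb downstream (chr8:84736001-84737000) stood at 23.0%, 31.7% and 21.2% in KO LSK, against 48.3%, 48.6% and 51.3% in CTRL LSK. Its call was lost without CTRL 1330, when the difference was -24.6 points. The tile 72.6 kb downstream (chr8:84707001-84708000) stood at 6.03%, 0.898% and 3.88% in KO LSK, against 23.6%, 25.0% and 26.1% in CTRL LSK, and without KO 1333 it missed the 20-point threshold with -19.95 points.

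Among tiles with an adjusted p under 0.05 in LSK, the values did not jump at the 20-point threshold. Just inside it were the tiles 72.6 and 34.6 kb downstream, with -21.0 and -23.1 points. Just outside it was the tile 4.4 kb upstream (chr8:84784001-84785000), which adjoins the upstream pair and stood at 5.56%, 6.01% and 3.90% in KO LSK, against 19.1%, 31.6% and 22.1% in CTRL LSK, a difference of -18.9 points. The next outside was in Nfic (chr10:81403001-81404000), with 69.0% ± 1.68 in KO and 86.0% ± 2.64 in CTRL LSK (SD, n = 3 each) and -17.1 points. The Nfic tiles at chr10:81404001-81405000 and chr10:81401001-81402000 differed by -19.3 and -21.8 points and missed the adjusted p.

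The 3 upstream Nfix tiles hold 66 C positions listed in all 10 libraries, between 84784318 and 84786713. The KO LSK mean was below the CTRL LSK mean at 66 of 66, and the KO libraries lay wholly below the CTRL libraries at 52. These tiles were picked by this same contrast and no share over all C positions was counted, so nothing is read from these counts. The segment falls into 3 runs of positions. The run nearest the window start (84784318 to 84785096, 38 positions) averaged 6.05% ± 1.09 in KO and 25.5% ± 6.67 in CTRL LSK. The middle run (84785230 to 84785603, 19 positions) averaged 28.4% ± 7.68 in KO and 68.8% ± 2.41 in CTRL LSK. The run farthest upstream (84786438 to 84786713, 9 positions) averaged 29.4% ± 3.96 in KO and 58.6% ± 5.65 in CTRL LSK (SD over libraries, n = 3 each). At position 84785286, of the middle run, KO LSK libraries stood at 21.9%, 22.8% and 23.4% and CTRL LSK libraries at 81.9%, 81.8% and 83.0%.

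**Figure D2:**
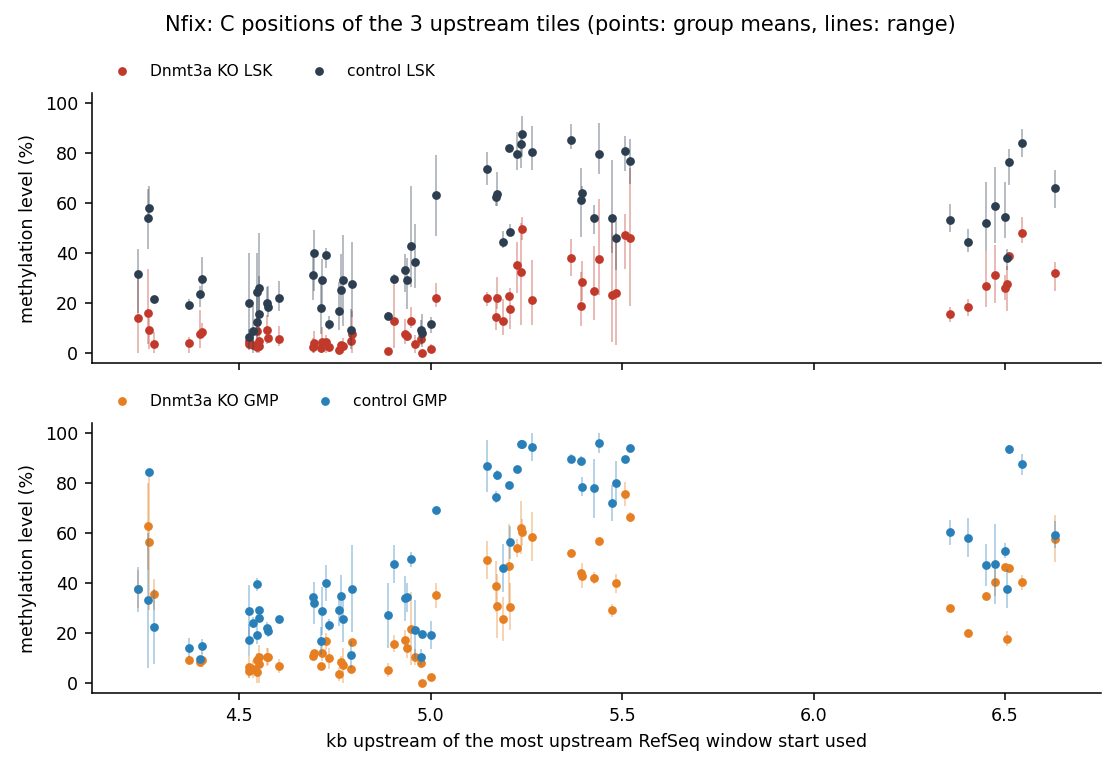
Methylation level (%) of the 66 C positions of the 3 upstream Nfix tiles against kb upstream of the most upstream RefSeq window start, in LSK (top) and GMP (bottom), with points for group means and lines for the range over libraries. KO points lie below CTRL points at 66 positions in LSK and at 63 in GMP, and levels of both genotypes step up about 5 kb upstream.

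Tiles at both ends of Nfix were nearly unmethylated in both genotypes. The CpG-dense tiles at the gene's upstream end (chr8:84799001-84801000 in 2 tiles, 114 and 100 C positions) had LSK group means between 0.102% and 0.233%. At the other end of the gene (chr8:84704001-84707000, in 3 tiles) the means were 0.162% to 0.392%. Of the 27 tiles, 6 had a CTRL LSK mean under 10%, 16 a mean of 10% to 90% and 5 a mean over 90%.

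Nfic (chromosome 10, 81396191 to 81431919) had 1 called tile among 20 and a median difference of -5.26 points. The called tile, 24.7 kb downstream of its RefSeq window start (chr10:81402001-81403000, 6 C positions), stood at 3.90%, 5.12% and 0.638% in KO LSK, against 39.3%, 25.8% and 28.0% in CTRL LSK. In 11 Nfic tiles all KO LSK libraries lay below all CTRL LSK libraries, and in Nfix in 14, as in 15.0% of all tiles. The rule used this contrast, so nothing is read from these shares. Nfib (chromosome 4, 82290173 to 82506751) and Nfia (chromosome 4, 97578066 to 98118876) held no called tile among 9 and 15, with medians of -0.03 and -0.11 points. Their tile differences ran only from -10.6 to 3.18 points in Nfib and from -2.97 to 4.37 in Nfia. Both hold few tiles at intermediate levels, 3 each with a CTRL LSK mean of 10% to 90%, against 9 in Nfic.

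**Figure D3:**
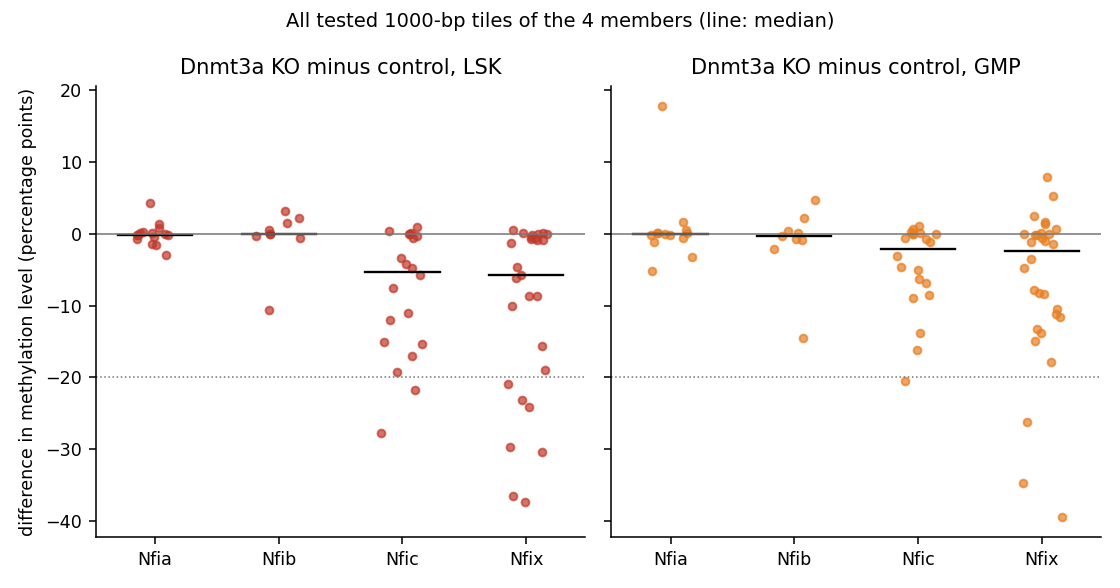
KO minus CTRL difference (percentage points) of every tested tile of the NFI genes in LSK (left) and GMP (right), with the median as a line and the 20-point threshold dotted. In Nfix and Nfic tiles spread downward from 0, and in Nfia and Nfib tiles lie within 6 points of 0 apart from 1 Nfib tile in both cell types and 1 Nfia tile in GMP that lies at 17.8 points.

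Averaged over 26 Nfix tiles measured in all 10 libraries, the level was 33.1%, 31.7% and 31.8% in KO LSK, against 43.8%, 42.9% and 42.5% in CTRL LSK, a difference of -10.9 points. Among the LSK libraries 1326 and 1327 listed over 1000 positions on chromosome Y and the others 211 to 229. Within these sets the Nfix difference was -10.7 (1 library each) and -11.0 points (2 each). Library 1333 listed 118988 positions that no other library did. Lower tiles called in the same comparison made up 0.871% of all tiles. They numbered 4 of 43 among the stem cell markers, all in Hlf, a stem cell transcription factor. Among the markers of other cells they numbered 2 of 22 and among the granulocyte markers 0 of 8. Their part in the Nfix values was not tested.

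The genes were chosen by LSK differences. That choice was made with earlier results of these data known, so the GMP libraries are no fully independent test. At each of the 7 Nfix tiles lower in KO LSK cells, both KO GMP libraries lay below both CTRL GMP libraries, with a median difference of -14.9 points. However, the model with its dispersion prior from all tiles passed 0.0% of the 107150 GMP tiles in the lower direction, and the limma-moderated adjusted p was 0.567 at 6 of these 7 and 0.569 at the tile 57.6 kb downstream. At an unadjusted p under 0.05, 14 of 30 Nfix tiles were lower, against 7.06% of all tiles. Among tiles at 20% to 70% in CTRL LSK cells these were 9 of 12 in Nfix and 1422 of 9554 in the genome. Among tiles called lower in KO LSK they were 7 of 7 in Nfix and 519 of 897 in the genome. By limma on logit levels 0 GMP tiles passed. With a prior fitted on tiles of intermediate level, which passed 0.248% of all tiles, 3 Nfix tiles fell. With the spread taken from all 4 groups, which passed 0.0869% of all tiles, 2 fell.

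The tile 5.4 kb upstream stood at 35.1% and 44.0% in KO GMP, against 72.2% and 77.1% in CTRL GMP, a difference of -34.8 points. Its adjusted p was 9.48e-05 with the intermediate-level prior and 0.0418 with the spread of all 4 groups. The tile 6.4 kb upstream stood at 36.5% and 33.8% in KO GMP, against 58.7% and 63.9% in CTRL GMP, a difference of -26.3 points with adjusted p = 0.00442 by the intermediate-level prior and 0.0238 with the spread of all 4 groups. The tile 58.6 kb downstream stood at 15.5% and 40.8% in KO GMP, against 75.2% and 65.8% in CTRL GMP. Its difference of -39.5 points had an adjusted p of 0.0445 with the intermediate-level prior. With the spread of all 4 groups, over positions listed in all 10 libraries, it was -49.6 points with adjusted p = 0.0862. The -39.5 points ranged between -54.2 and -28.9 when single libraries were left out.

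The tile 4.4 kb upstream, outside the LSK threshold, stood at 8.68% and 12.1% in KO GMP and at 25.2% and 30.7% in CTRL GMP, with an intermediate-prior adjusted p of 0.00366 but a difference of only -17.9 points. The tile 34.6 kb downstream stood at 15.3% and 21.5% in KO GMP and at 34.5% and 33.0% in CTRL GMP. Its difference of -14.9 points did not pass with any prior. Over the 66 upstream C positions, both KO GMP libraries lay below both CTRL GMP libraries at 56, and the KO mean was lower at 63. No share over all C positions was counted for comparison. The middle run averaged 47.7% ± 7.11 in KO and 82.3% ± 1.67 in CTRL GMP (SD, n = 2 each). The remaining LSK-lower tiles, 43.6, 57.6 and 72.6 kb downstream, differed by -13.8, -10.5 and -8.37 points in GMP. The difference 57.6 kb downstream was -6.00 points without CTRL 349, and that 72.6 kb downstream was -3.56 without CTRL 346 and -13.0 without CTRL 349.

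**Figure D4:**
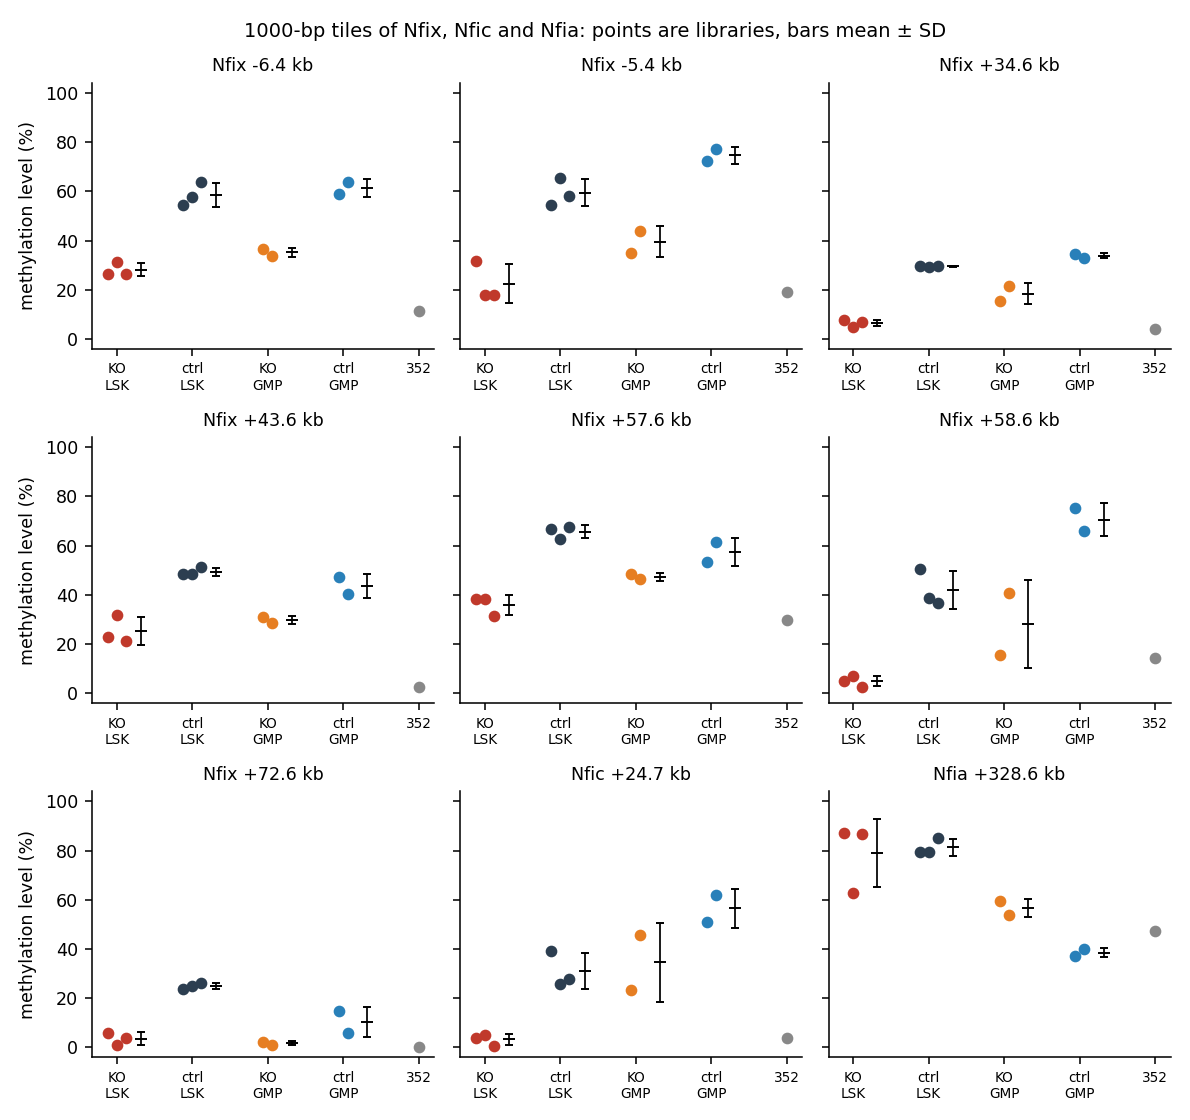
Methylation level (%) in each library for the 7 Nfix tiles and the Nfic tile called lower in KO LSK and for the Nfia tile that differed between control cells, named by kb from the RefSeq window start, with mean ± SD bars per group and library 352 apart. KO points lie below CTRL points in both cell types in the Nfix and Nfic panels, and in the Nfia panel the GMP points lie below the LSK points.

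The same shares were counted over the whole genome. Both KO GMP libraries lay below both CTRL GMP libraries in 25.9% of all tiles and in 17 of 30 Nfix tiles. Among tiles at 20% to 70% in CTRL LSK cells this was so for 34.7% of all tiles and for 9 of 12 in Nfix, 7 of which are the LSK-lower ones. Of the 897 tiles lower in KO LSK that were measured in GMP, 81.0% had this pattern, so the 7 of 7 in Nfix lie near the share for such tiles in general. The GMP difference was smaller than the LSK one at all 7 tiles but the one 58.6 kb downstream. The difference between the cell types was not tested.

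The mean Nfix tile level was 35.6% and 37.7% in KO GMP, against 44.8% and 44.5% in CTRL GMP, a difference of -7.98 points. An exact two-sided permutation test gave p = 0.333, the smallest that 2 against 2 libraries allow. Over the whole gene span with reads pooled, the level was 15.4% and 15.5% in KO GMP, against 20.7% and 19.4% in CTRL GMP. This difference of -4.59 points had limma-moderated adjusted p = 0.360 over 24045 gene spans (0.059 with the intermediate-level prior), and 0.0% of spans passed as lower at 10 points or more. At an unadjusted p under 0.05 there were 2661 spans in either direction.

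In GMP the Nfic tile called in LSK stood at 23.2% and 45.8% in KO, against 51.0% and 62.1% in CTRL, with adjusted p = 0.603. Its difference of -20.5 points ran from -33.3 without 179 to -10.7 without 178. In 8 of 20 Nfic tiles both KO GMP libraries lay below both CTRL GMP libraries, a pattern found in 25.9% of all tiles. The mean Nfic tile level was 40.8% and 45.2% in KO GMP, against 47.5% and 47.7% in CTRL GMP, with exact permutation p = 0.333. That difference, -4.67 points, was -2.44 without 178. Its pooled span level was higher in KO than in CTRL GMP by 1.65 points (adjusted p = 0.595), and by 0.53 to 2.66 points without single libraries. The span value weights every read alike, and the mean over tiles every tile alike, so the sign depends on this choice. The Nfic tile that overlaps its promoter window had 0.847% and 0.551% in KO GMP, against 0.0% in both CTRL GMP libraries. Its listed positions lie outside the window, so these are not promoter values.

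In Nfib the largest GMP difference was at chr4:82467001-82468000 (3 C positions), at 66.2% and 72.5% in KO, against 78.8% and 86.8% in CTRL, with adjusted p = 0.571. The same tile stood at 63.0%, 63.9% and 64.4% in KO LSK, against 72.4%, 74.9% and 75.5% in CTRL LSK. Pooled spans of Nfib and Nfia differed by 1.36 and 0.30 points in GMP (adjusted p = 0.599 and 0.925). The Nfix tiles that overlap its RefSeq windows (chr8:84772001-84774000, in 2 tiles) differed by -1.04 and -4.71 points in GMP, and neither passed. The listed positions of the first lie outside the window it overlaps. Without CTRL 346 the second was -0.995 points, and without CTRL 349 it was -7.34.

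In Nfia the called tile was one between control cell types. At chr4:97910001-97911000 (5 C positions, 328.6 kb downstream of the window start), CTRL GMP libraries stood at 37.2% and 39.8%, against 79.3%, 79.3% and 85.2% in CTRL LSK libraries. This tile was lower in GMP by 42.5 points when reads were pooled (adjusted p = 0.00158), and the call held in all 10 alternatives run. Of all 104839 tiles 0.772% were called lower in CTRL GMP and 0.113% higher. Among the 5 positions, the 4 between 97910933 and 97910948 held most of the difference, with CTRL GMP means of 17.1% to 42.6% against CTRL LSK means of 67.5% to 88.3%, and the fifth, at 97911000, had 84.3% in CTRL GMP and 96.4% in CTRL LSK.

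KO GMP libraries stood between these at the same Nfia tile, with 59.3% and 53.9%, and so lay 17.8 points above CTRL GMP (adjusted p = 0.567). KO LSK libraries stood at 87.3%, 62.9% and 86.9%, of which 1333 was the lowest, and overlapped the CTRL LSK libraries. Nfib and Nfic held no tile called between control GMP and control LSK, although in tiles shifted by 500 bp Nfic held 1 lower and 1 higher tile. In Nfix the tile 58.6 kb downstream was higher in CTRL GMP (77.8% and 82.5%) than in CTRL LSK (50.7%, 38.5% and 36.6%), over the 7 positions common to these libraries. This is a description, since the CTRL LSK values entered the choice, and the call was lost in 5 of 10 alternatives, among them without 346, 349, 1330 or 1331.

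Genes tied to NFI factors by background knowledge, such as Ski, a corepressor that binds NFI proteins, Sox9, a partner of Nfia in glia, and Gfap, a target in astrocytes, were counted the same way. Of 10 genes 9 had tiles. In LSK 1 of their 62 tiles was called lower, against 0.871% of all tiles. It lay in Tle3, a Groucho-type corepressor, with -29.4 points, while the median difference of the Tle3 tiles was -0.04. In GMP 0 of 62 were called lower, against 0.0% of all tiles. Between control GMP and LSK 0 of 60 were called lower, against 0.772% of all tiles. By the root mean square difference of centred mean tile levels over the 10 libraries, the genes closest to Nfix among 1437 with at least 10 tiles were Cbfa2t3 (1.12 points), Pitpnm2 (1.24), Macrod1 (1.68), Gdpd5 (1.75) and Nfic (1.75). Their LSK differences were -9.48, -7.95, -7.89, -8.05 and -8.26 points. The ranking used these same libraries, so differences near that of Nfix follow from it and nothing more is read from them.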

How the data were processed

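The deposited tables list, per the file headers, C positions their coverage, which is a read count, and the C and T shares of those reads in percent. Per the submitters' processing notes, Bismark and the builds mm10 and GRCm38 were used, and versions are not given in the sources used here. Every listed position has 10 reads or more, so an unlisted position is not a 0. C and T reads were recovered as coverage times percent, and the 2 strands of a CpG are separate positions.

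Positions listed in every library of a comparison were summed in 1000-bp tiles (3 positions or more) and gene spans (5 or more, RefSeq GRCm38.p6). A quasi-binomial logistic model (F test, dispersion at least 1, moderated by limma 3.58.1 squeezeVar in R 4.3.3, trend on log coverage) compared groups, with Benjamini-Hochberg adjustment over all features and thresholds of adjusted p 0.05 and 20 (tiles) or 10 points (spans). The intermediate-level prior used features with pooled levels of 5% to 95%. Scripts were tested on simulated data. Members and lists were chosen with earlier results of these data known. Named tiles were those called, those overlapping a promoter window, and the largest GMP difference of each gene. The tile 4.4 kb upstream of Nfix falls under the rule for tiles near the threshold. The tiles at the ends of Nfix and those with opposite directions were picked after their values were seen. Genes of like pattern had the smallest root mean square difference from Nfix.

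The labels do not say that libraries came from separate animals, so a p-value measures only spread among the libraries at hand, which may be technical. Reads carry no molecular identifiers. The GMP libraries are less deeply read, and 2 against 2 limits their precision.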

Additional observations from a re-analysis of the deposited data

Results flagged for a closer look

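At 2 Nfix tiles the LSK and GMP libraries separated in opposite directions. At chr8:84715001-84716000, with 3 C positions, the KO minus CTRL difference was -5.78 points in LSK, with every KO library below every CTRL library, and 1.42 points in GMP, with both KO libraries above both CTRL libraries. These separations were narrow. The nearest LSK libraries stood at 84.0% (KO 1334) and 84.4% (CTRL 1331), with KO 1333 lowest at 69.8%. The nearest GMP libraries stood at 90.8% (KO 178) and 90.78% (CTRL 349). At chr8:84799001-84800000, a tile of 114 C positions near 0%, the difference was 0.042 points in LSK and -0.22 points in GMP. The difference between the cell types was not tested at either tile.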

How the results depend on the processing

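No paired analysis was possible because no library number is shared between groups. The 8 NFI tiles called in LSK became 5 by limma on logit levels (without the Nfic tile and the Nfix tiles 43.6 and 72.6 kb downstream) and 13 at a 10-point threshold, and 7 to 9 when single libraries were left out. Over all tiles, 933 became 513, 448, 382 and 454 without 1334, 1326, 1330 and 1331, but 1284 without 1327 and 860 without 1333. The 0 calls in GMP became 3 with the intermediate-level prior and 2 with the spread of all 4 groups. Between control GMP and LSK, the 1 higher tile became 0 with the spread of all 4 groups (0 to 1 without single libraries) and the 1 lower tile 2 in tiles shifted by 500 bp, the added one in Nfic, where the higher call also moved from Nfix. The Nfix tile chr8:84772001-84773000, whose listed positions lie outside the promoter window it overlaps, turned to 1.06 points in GMP without 178. It ran from -3.28 to 1.52 (without 349). The Nfia span difference ran from -0.46 to 0.99 points, negative without 179 (-0.11) and without 346 (-0.46). Mean tile levels moved with the weighting. With positions weighted equally, the LSK differences were -6.50 in Nfix and -2.66 in Nfic, and the GMP ones -5.01, -1.54, -0.17 (Nfib) and 0.067 (Nfia). With reads pooled, they were -5.17, -1.89, 0.47 (Nfib) and 0.64 (Nfia) in LSK, and -4.40, 1.47 and 1.41 (Nfib) in GMP. With at least 5 positions per tile Nfix gave -14.0 in LSK and -10.6 in GMP, and Nfib -0.057 in GMP. With 20 reads per position Nfix gave -11.6 in LSK. In 1326 and 1327, the libraries with many Y positions (a split chosen after seeing the data), Nfia gave 0.53. Without single libraries the LSK mean difference ran from -11.3 to -10.5 points in Nfix and from -0.63 to 0.22 in Nfia. The cause of these shifts was not tested.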

Other observations

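GMP library 352, whose labels put it in no group, stood at 19.3%, 11.6%, 14.1%, 29.9%, 2.32%, 3.95% and 0.265% at the Nfix tiles 5.4 and 6.4 kb upstream and 58.6, 57.6, 43.6, 34.6 and 72.6 kb downstream of the window start, and at 3.83% at the Nfic tile called in LSK. Each of these 8 values lay below the 4 assigned GMP libraries. At the Nfia tile that differed between control cells, library 352 stood at 47.4%, between the KO and the CTRL GMP libraries.

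The values listed for the 2 strands of a CpG can disagree, and whether the DNA or the library preparation gave rise to this was not tested. In the Nfia tile chr4:97720001-97721000, whose level was near 50% in every group, the C of the forward strand at 97720253 was at 93.5% or more over the 10 assigned libraries and its reverse-strand partner at 0.0% to 13.2%. The next CpG, at 97720302, had the opposite pattern, with 0.0% to 7.69% on the forward and 85.7% or more on the reverse strand. Of CpGs with both strands listed in all 10 libraries, the strands stood over 50 points apart in every library at 2 of 46 in Nfia, at 0 of 101 in Nfix, 0 of 54 in Nfic and 0 of 19 in Nfib, and at 0.895% of 202144 in the genome. None of the called NFI tiles held such a CpG.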
